A study of Ovis aries with 10 samples.

Results

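RNA binding and splicing genes hosted 138 of the 8721 circular RNAs (circRNAs) listed in the 10 sheep libraries examined here, from 62 of 3435 host genes. A circRNA was taken when the symbol of its host gene began with the name of a family of RNA binding, splicing, helicase, RNA decay or small RNA silencing proteins (SRSF without SRSF1, SF3, PRPF, DDX, DHX, HNRNP, numbered RBM genes, RBFOX, CELF, MBNL, QKI, PUM, CPEB, CPSF, CNOT, XRN, ELAVL, TNRC6, LARP, IGF2BP, FXR and AGO). Beyond an entry in at least 1 of these libraries, the rule uses no measured value. The 138 circRNAs held 6275 of 445393 junction reads (1.41%). None of the 138 came from an ELAVL or IGF2BP gene.

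A circRNA forms when the spliceosome joins a splice donor to an acceptor that lies upstream of it, and the closed RNA then lacks the ends at which exonucleases start. A read that crosses this back-spliced junction identifies the circle. RNA binding proteins belong to the known regulators of the process: quaking, encoded by QKI, and muscleblind, encoded by MBNL1, bind introns beside circularized exons, and genes of splicing factors also give circRNAs of their own. In skeletal muscle MBNL1, QKI, RBFOX2 and the CELF proteins regulate the alternative splicing of muscle transcripts, and RBM20 regulates that of TTN. A circRNA from such a gene does not show how much of the protein is made.

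The series compared 5 sham-operated small-tailed Han sheep samples with 5 samples after ovariectomy, which removes the main source of estrogen, to study estrogen and muscle growth in females. The tissue of every sample is given as longissimus dorsi, the long muscle of the back, and neither the age of the sheep nor the time since surgery is given. They also call each sample primary myoblasts and describe cell culture with graded estradiol, yet assign no sample a concentration, so whether muscle or cultured cells were sequenced is not settled. The labels do not say that each library came from its own animal, and p-values then measure the spread between these samples, which may be technical.

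Circles of some adult fibre genes were abundant. Of 10 adult muscle fibre markers, 9 hosted circRNAs, with 15826 junction reads in all, and MYH7 hosted none. TTN alone held 12696 of these reads and NEB 1695, whereas MYH1, ACTA1 and CKM had 2 reads each. Of 8 myoblast and satellite cell markers only NCAM1 and DES hosted one, with 5 reads together, and none of 4 proliferation markers did. PECAM1 and FLT1 were the 2 of 4 endothelial markers with circRNAs, with 145 reads together, and the fibroblast, immune and fat markers hosted none. Libraries held 35731 to 67061 junction reads, the most in ovariectomized replicate 5. That library also had a median of 25.9 junction reads per 100 non-junction reads over the tested circRNAs, against 13.5 to 16.1 in the other ovariectomized and 11.4 to 15.2 in the sham libraries. One circRNA of SENP6 took 2.47% to 24.3% of the reads of the 6 libraries that listed it, which lowers every other share there.

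By the deposited feature labels, the circRNAs of RNA binding genes were mostly exonic, 133 of 138 (96.4%, against 90.9% of all circRNAs). The other 5 were labelled intronic, and that label is uncertain for circles of LARP4 and TNRC6A. Some blocks labelled introns in novel_circ_0004384 of LARP4 and novel_circ_0016219 of TNRC6A are labelled exons in other circles of the same gene. The features listed in the file, exons or, for intronic circles, introns, reached both ends of the circle for 97 of the 138, and for 6001 of all 8721. For the other 41 the listed spliced length covers only part of the circle. Over the 97 the median spliced length was 321 bp and the median genomic span 5.69 kb, against 329 bp and 7.09 kb over all circRNAs with both ends reached. Of these 97, 74 (76.3%) held 2 or 3 such features and 16 (16.5%) held 4 or more.

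Few circRNAs carried most of the reads. LARP1B, PUM2, QKI, HNRNPC and TNRC6B each gave 1 of the 5 most abundant, which together held 2804 reads, or 44.7% of those of the 138. The 16 circRNAs listed in all 10 libraries held 4386 reads (69.9%, against 59.8% for the corresponding circRNAs of the series). At the other end, 45 (32.6%) were listed in a single library, against 37.5% of all circRNAs, and the median total was 10 reads in both sets. The smallest listed count is 2 reads, and a library without an entry was entered as 0. Since a circle has 1 junction whatever its length, junction reads of different circRNAs are compared here without division by length.

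**Figure D1:**
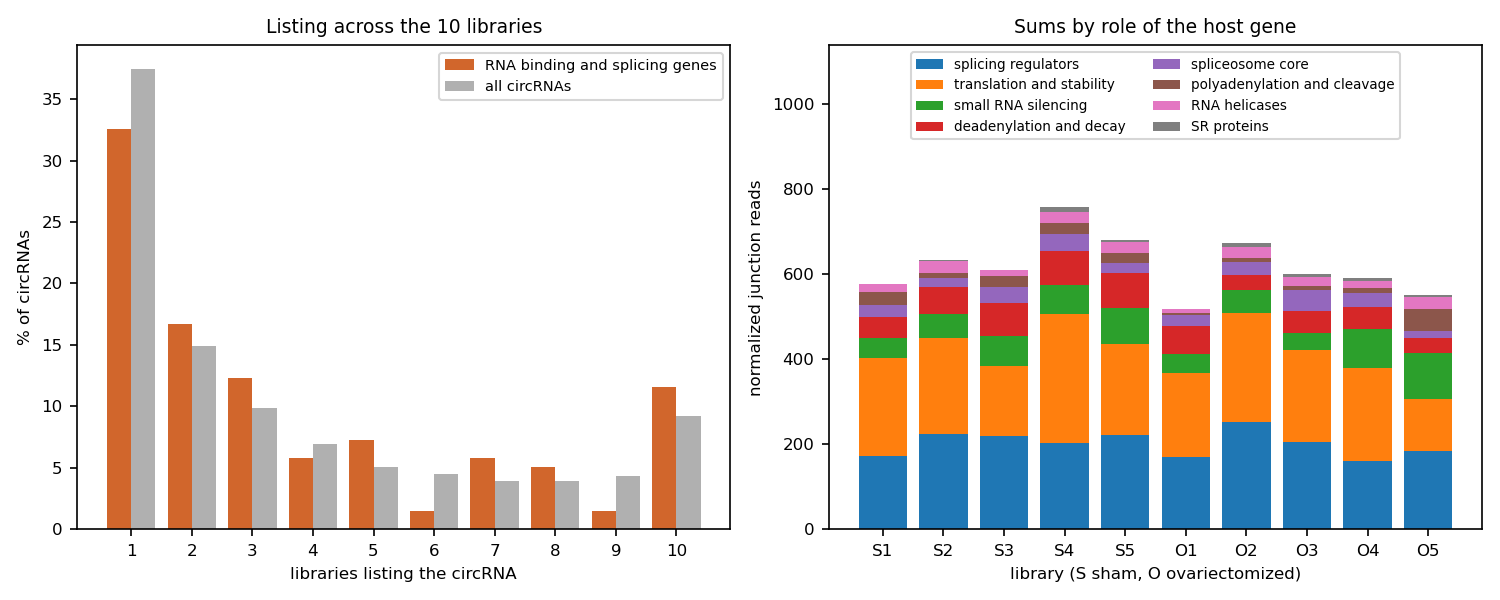
Left, the percentage of circRNAs (y axis) by the number of libraries listing them (x axis), for the 138 circRNAs of RNA binding and splicing genes (orange) and all 8721 (grey). Right, normalized junction reads of the 138 summed by role of the host gene and stacked (y axis) for each library (S sham, O ovariectomized); splicing regulators and translation and stability genes form the 2 deepest layers in every library.

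Roles were assigned by the first letters of the host symbol, not by the known function of each gene. Genes of translation and RNA stability (PUM, FXR and LARP) gave 27 circRNAs of 8 genes with 34.0% of the reads. Splicing regulators (RBFOX, CELF, MBNL, QKI, HNRNP and numbered RBM genes) gave 40 circRNAs of 17 genes with 32.4%. Small RNA silencing genes (AGO and TNRC6) followed with 15 circRNAs and 11.4%, and deadenylation and decay genes (CNOT and XRN) with 16 and 9.42%. Spliceosome core genes (SF3 and PRPF) gave 9 circRNAs and 4.8%, and polyadenylation and cleavage genes (CPEB and CPSF) 8 and 3.68%. The DDX and DHX helicases were spread over the most thinly read circles: 21 circRNAs of 12 genes held 3.44% of the reads, 13 of the 21 were listed in a single library, and none in all 10. Among the SR protein genes taken here, which leave out SRSF1, only SRSF11 hosted circRNAs, 2 of them with 51 reads.

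The leading circle of the translation and stability genes was novel_circ_0013533 of LARP1B, a La-related RNA binding protein (identifiers are the authors'). It lay on chromosome 17 from 29882914 to 29885551 on the minus strand and joined 3 exons of 178, 60 and 59 bp. Coordinates are those of the files, whose genome build is not given in the sources used here, and chromosomes were numbered by where ARS-UI_Ramb_v3.0 places the host gene. The circle had 724 reads over the 10 libraries. LARP1B gave 4 circRNAs and all 4 ended at position 29885551, which on the minus strand is the acceptor of the circle, so that they shared their upstream end and differed in the donor. Novel_circ_0013533, the shortest of them in genomic span, took 89.6% of the 808 reads.

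PUM2 encodes a Pumilio protein that binds 3′ untranslated regions of mRNAs and represses translation. Its circle novel_circ_0005167 joined 6 exons with 856 bp on chromosome 3 from 28192331 to 28207122, minus strand, and took 568 of the 619 reads of the gene. LARP4, which binds poly(A) and stabilizes mRNA, gave 10 circRNAs, the most of any of the 62 hosts, and 4 of them were listed in all libraries. These 10 used 3 donors and 6 acceptors. The donor at 135876821 on chromosome 3 was used by 4 circRNAs with 58.2% of the reads of the gene, and the acceptor at 135896700 by 3 with 42.4%. Its leading circle, novel_circ_0004378 (4 exons, 406 bp), held only 34.6% of the reads, so that LARP4, unlike LARP1B, divided its reads over several circles. The related LARP4B gave a single circRNA, novel_circ_0011993 on chromosome 13, with 4 exons and 121 reads.

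Among the splicing regulators QKI led with 849 reads in 2 circRNAs. Both began at 86614489 on chromosome 8, plus strand, and contained exons of 143 and 117 bp. Novel_circ_0009468 ended after those 2 exons, at 86635554, and had 531 reads. Novel_circ_0009469 went on to a further exon of 144 bp and ended at 86680244. The single circRNA of HNRNPC, an abundant protein of nuclear pre-mRNA particles, was novel_circ_0008066 on chromosome 7 from 24246053 to 24249421, plus strand, with 3 exons, 441 bp and 502 reads. MBNL1 gave 6 circRNAs with 139 reads, none of them listed in every library and none with more than 28.1% of the reads, and 3 shared the acceptor at 236121453 on chromosome 1. RBM33 gave 7 circRNAs, among them novel_circ_0005920, a single exon of 1867 bp and the longest spliced circle of the 138. RBM5 and RBM6, splicing regulators that lie near each other on chromosome 19, gave 4 and 3. RBM20 gave 4 circRNAs with 39 reads.

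TNRC6B, a partner of Argonaute proteins in small RNA silencing, gave 6 circRNAs. Of its 552 reads 479 belonged to novel_circ_0005087, with 3 exons and 297 bp on chromosome 3 from 217430702 to 217434602, plus strand. The Argonaute genes had far fewer: 4 circRNAs with 89 reads for AGO3, 1 with 25 for AGO2 and 1 with 9 for AGO4.

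The genes of the paralogous deadenylases CNOT6 and CNOT6L, catalytic subunits of the CCR4-NOT complex that shortens poly(A) tails, gave circles with exons of matching length. Novel_circ_0006866 of CNOT6, on chromosome 5 from 445535 to 447721, minus strand, joined exons of 86 and 187 bp. Novel_circ_0007774 of CNOT6L, on chromosome 6 from 93184518 to 93190657, minus strand, joined exons of 86, 187 and 122 bp, and held 211 of the 301 reads of that gene. The acceptor of CNOT6L at 93190657 was used by 3 circRNAs with 96.7% of its reads. The leading circles of the other roles were novel_circ_0004543 of CPSF6, a subunit of a cleavage factor for polyadenylation (151 reads), novel_circ_0011812 of PRPF18, a factor of the second splicing step (99 reads), novel_circ_0007432 of the helicase DHX15, which disassembles spliceosomes (61 reads), and novel_circ_0001509 of SRSF11 (35 reads). SF3B1, which recognizes the branch site, gave novel_circ_0003132 with 78 reads, and CNOT2, a subunit of the CCR4-NOT complex, novel_circ_0004523 with 77.

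**Figure D2:**
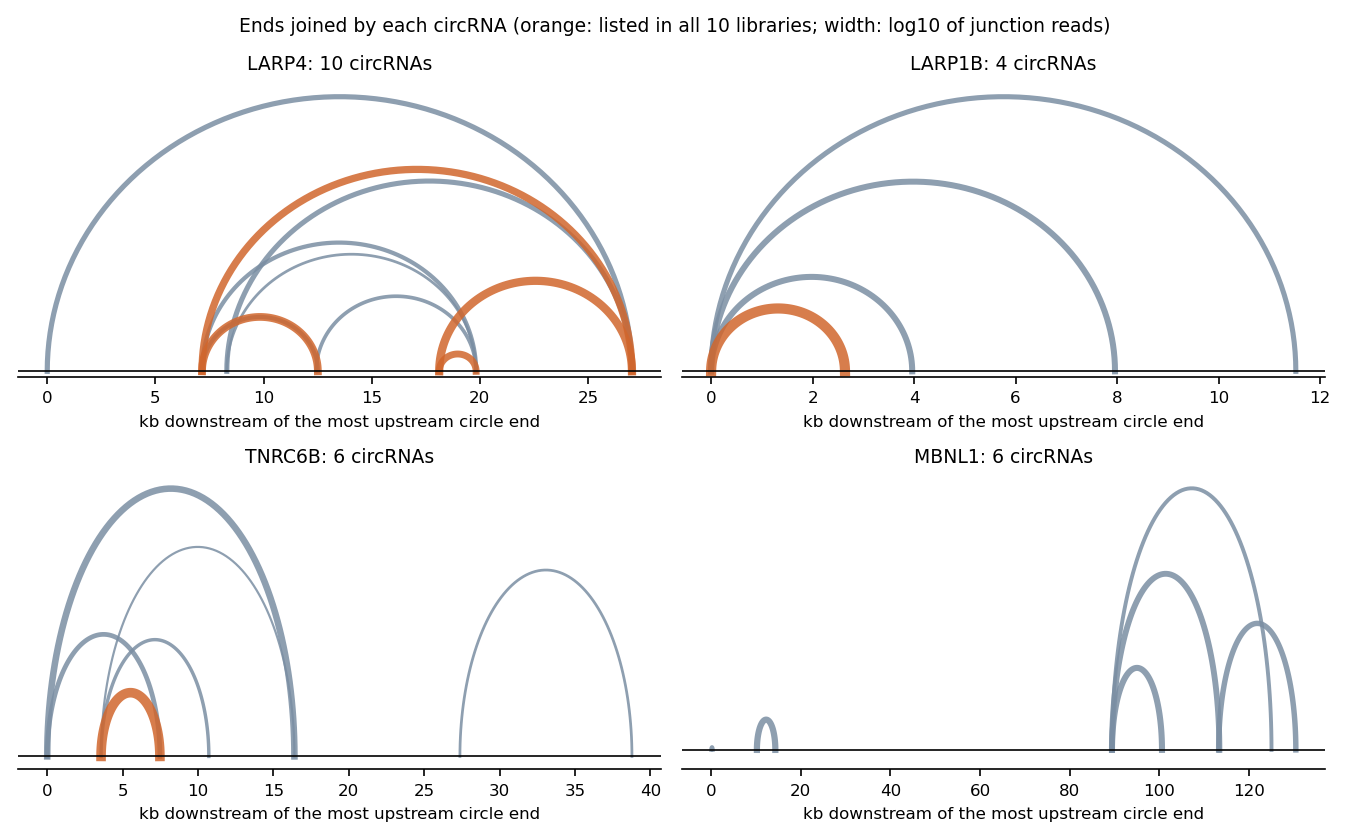
Arcs join the 2 ends of each circRNA of LARP4, LARP1B, TNRC6B and MBNL1, drawn in the direction of transcription against the distance in kb from the most upstream end (x axis); arc height grows with the span and has no further scale. Line width follows log10 of the junction reads, orange marks circRNAs listed in all 10 libraries, and the 4 arcs of LARP1B start at a common end while LARP4 has 4 orange arcs.

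Shared ends were common in hosts with several circRNAs. Of the 108 circRNAs in such hosts, 81 (75%) shared an end with another circle of the gene, against 69.1% of the 6831 in the series. An acceptor was shared by 55 (50.9%, against 43.6%) and a donor by 47 (43.5%, against 40.1%). These shares are descriptions, and no test was made of them.

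Non-junction reads give a second readout of the same place. The sources do not define them, and they are read here as fragments that touch an end of the circle without crossing the back-spliced junction. Over the 12 circRNAs of RNA binding genes that passed the read filter given below, the median was 10.8 junction reads per 100 non-junction reads, against 14.8 over all that passed, and 6 of the 12 lay above that value. The range among them was wide. CNOT6L had a median of 52.4 over its libraries, LARP1B 39.3, CNOT6 32.5 and TNRC6B 26.1. The 2 QKI circles had 2.03 and 1.55, with medians of 2001 and 1898 non-junction reads, and CPSF6 had 4.03. So the QKI circles were among the most read of the 138 and at the same time a small fraction of the reads at their ends, whereas the CNOT6L circle stood beside a median of only 36 non-junction reads.

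**Figure D3:**
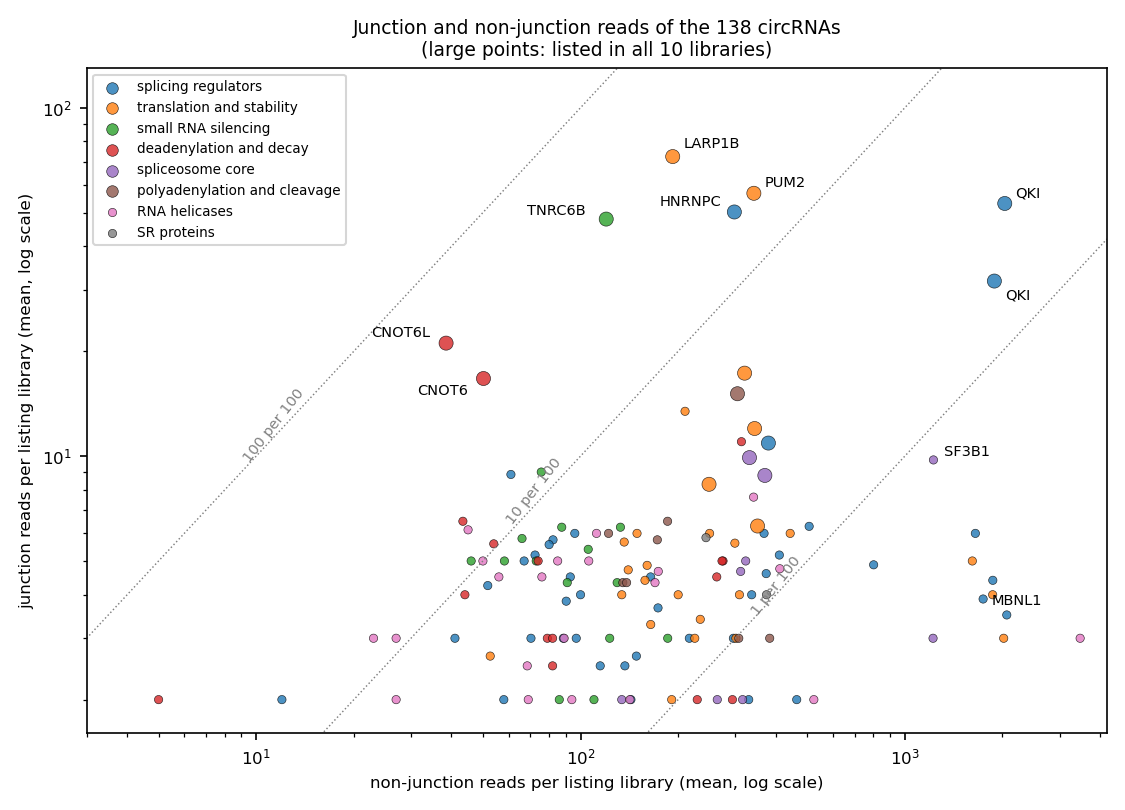
Each point is 1 of the 138 circRNAs, with its mean non-junction reads (x axis) and mean junction reads (y axis) over the libraries that list it, both on log scales, coloured by role; large points are listed in all 10 libraries. Dotted lines mark 1, 10 and 100 junction reads per 100 non-junction reads, and the CNOT6L circle lies highest of the labelled points relative to these lines while both QKI circles lie between the lower 2.

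The comparison of ovariectomized with sham libraries found no circRNA of the 138 past the threshold. The filter asked for at least 5 libraries with 10 or more scaled reads and a total of 15, and 738 circRNAs passed, among them 12 of the 138 (8.7%, against 8.46% of all). Filtering selects on level over both groups, so these 12 do not stand for all 138. In limma voom, 0 of 738 circRNAs (0%) and 0 of the 12 had a Benjamini-Hochberg adjusted p under 0.05. At an unadjusted p under 0.05 there were 42 of 738 (5.69%) and 2 of the 12, the circles of PUM2 and CNOT6L. Both had lower values after ovariectomy, as did 33 of the 42 (4.47% of all tested). Limma trend on log2 values also called 0 of the 738 and 0 of the 12. At an unadjusted p under 0.05 it had 18 higher and 23 lower of the 738, and 1 of the 12, which was lower. The log2 difference, ovariectomized minus sham, was above 0 for 5 of the 12 and below for 7, with a median of -0.29 against -0.04 over all tested. With library totals in place of the trimmed mean scaling these medians were -0.10 and 0.14. In bulk libraries fewer cells of a type and less RNA per cell cannot be told apart.

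The PUM2 circle had normalized junction reads of 53.4, 89.0, 45.3, 107 and 65.6 in the 5 sham libraries, by replicate, and of 37.2, 49.8, 43.3, 46.8 and 35.3 in the 5 ovariectomized libraries (reads divided by the scaled library size). Every sham value but that of replicate 3 lay above every ovariectomized value. The means were 72.1 ± 25.7 and 42.5 ± 6.18 (SD, n = 5 each), a log2 difference of -0.72 ± 0.26 (SE) with a limma unadjusted p of 0.0158 and an adjusted p of 0.781, which ranged from 0.309 to 0.921 over the alternatives. A p under 0.05 is given in the authors' deposited table to 118 of 8721 circRNAs (1.35%), and of the 138 to PUM2 alone. In the authors' deposited table PUM2 has group means of 41.5 after ovariectomy and 69.3 in sham, and a log2 of their ratio, sham on top, of 0.75. The authors' deposited table lists for it a p of 0.007, from a test not given in the sources used here, and an adjusted p of 0.966. The PUM2 host sum, which adds its 2 minor circles, had a limma log2 difference of -0.65 ± 0.25 with an adjusted p of 0.714.

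For the CNOT6L circle the sham values were 20.8, 20.5, 37.7, 28.5 and 23.2, and the ovariectomized values 23.8, 11.2, 20.1, 14.7 and 13.0. The groups overlapped through ovariectomized replicate 1, and the other 4 ovariectomized values lay below every sham value. Means were 26.2 ± 7.23 and 16.6 ± 5.22 (SD, n = 5 each), and the limma log2 difference was -0.71 ± 0.31 (SE), unadjusted p = 0.0353 and adjusted p = 0.781. Its paralog CNOT6 had 18.5 ± 9.65 and 15.1 ± 6.06, a log2 difference of -0.34 ± 0.43, which was 0.00 without ovariectomized replicate 4, -0.07 without sham replicate 5 and -0.56 without sham replicate 3. Summed over all 16 circRNAs of the deadenylation and decay genes, sham libraries had 70.6 ± 14.5 normalized reads and ovariectomized ones 48.0 ± 12.4 (SD, n = 5 each), with ranges of 48.2 to 81.7 and 35.6 to 66.1 that overlapped. This sum includes the CNOT6L circle. Means of the other roles, sham first, were lower after ovariectomy for splicing regulators (208 and 194), translation and stability (228 and 202), polyadenylation and cleavage (24.1 and 17.9) and helicases (21.8 and 19.6). They were higher for small RNA silencing (64.8 and 67.9), spliceosome core (29.8 and 30.7) and SR proteins (4.09 and 5.53).

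The HNRNPC circle had 36.4, 73.4, 63.6, 60.0 and 58.6 normalized reads in sham and 47.5, 44.8, 24.3, 43.3 and 44.6 in ovariectomized libraries. All sham values but that of replicate 1 lay above the ovariectomized ones, and sham replicate 1 lay below 4 of them. The limma log2 difference was -0.51 ± 0.26 (SE) with an adjusted p of 0.781, and -0.32 without ovariectomized replicate 3, the lowest value. RBM5 novel_circ_0014562 had 13.0, 19.2, 16.2, 10.8 and 13.1 in sham and 3.1, 7.12, 8.45, 12.1 and 7.44 in ovariectomized libraries. The groups overlapped only where ovariectomized replicate 4 exceeded sham replicate 4. Its limma log2 difference was -0.88 ± 0.48, the lowest of the 12, with an adjusted p of 0.781.

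The highest log2 differences belonged to the shorter QKI circle and to LARP1B, with limma unadjusted p-values of 0.196 and 0.364. Novel_circ_0009468 of QKI had 54.7, 32.5, 31.3, 34.5 and 57.6 normalized reads in sham and 39.3, 99.7, 75, 30.3 and 61.4 in ovariectomized libraries, a limma log2 difference of 0.45 ± 0.33 (SE) with an adjusted p of 0.847. Ovariectomized replicates 2, 3 and 5 were above all sham values, and replicate 4 was the lowest of the 10. The log2 difference was 0.71 without ovariectomized replicate 4 (limma adjusted p = 0.705) and 0.28 without replicate 2. The longer QKI circle, which shares its upstream end, differed by 0.05 ± 0.37, and its sign turned without sham replicate 1 (-0.03), sham replicate 4 (-0.17) or ovariectomized replicate 2 (-0.14). LARP1B had 95.0, 50.5, 32.3, 76.8 and 56.5 in sham and 79.6, 117, 99.2, 92.8 and 32.2 in ovariectomized libraries. The log2 difference was 0.35 ± 0.38 (limma adjusted p = 0.863), with the ovariectomized group holding both the highest and the lowest value. Without ovariectomized replicate 5, the lowest, it was 0.74 (limma unadjusted p = 0.0137, adjusted p = 0.665), and without sham replicate 3 it was 0.18.

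The values of the remaining circles also moved when 1 library was left out. The CPSF6 circle had 12.0 to 18.3 normalized reads in sham and 2.03 to 9.54 in ovariectomized replicates 1 to 4, but 32.2 in ovariectomized replicate 5. Its log2 difference was -0.23 ± 0.55 with all libraries and -1.22 without that replicate. TNRC6B had 26.5 to 52.2 in sham and 23.4 to 89.9 in ovariectomized libraries, the highest again in ovariectomized replicate 5, and its log2 difference of 0.28 ± 0.37 was 0.00 without it. LARP4B was not listed in ovariectomized replicate 1, and its log2 difference of -0.79 ± 0.71 was -0.20 without that library. Novel_circ_0004378 of LARP4 differed by 0.31 ± 0.33, and by 0.21 to 0.50 with each library left out. Adjusted p-values of these 4 in limma voom lay between 0.847 and 0.939. Ovariectomized replicate 5 is the deepest library, with the highest ratio of junction to non-junction reads, and the part of either in these values was not tested.

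**Figure D4:**
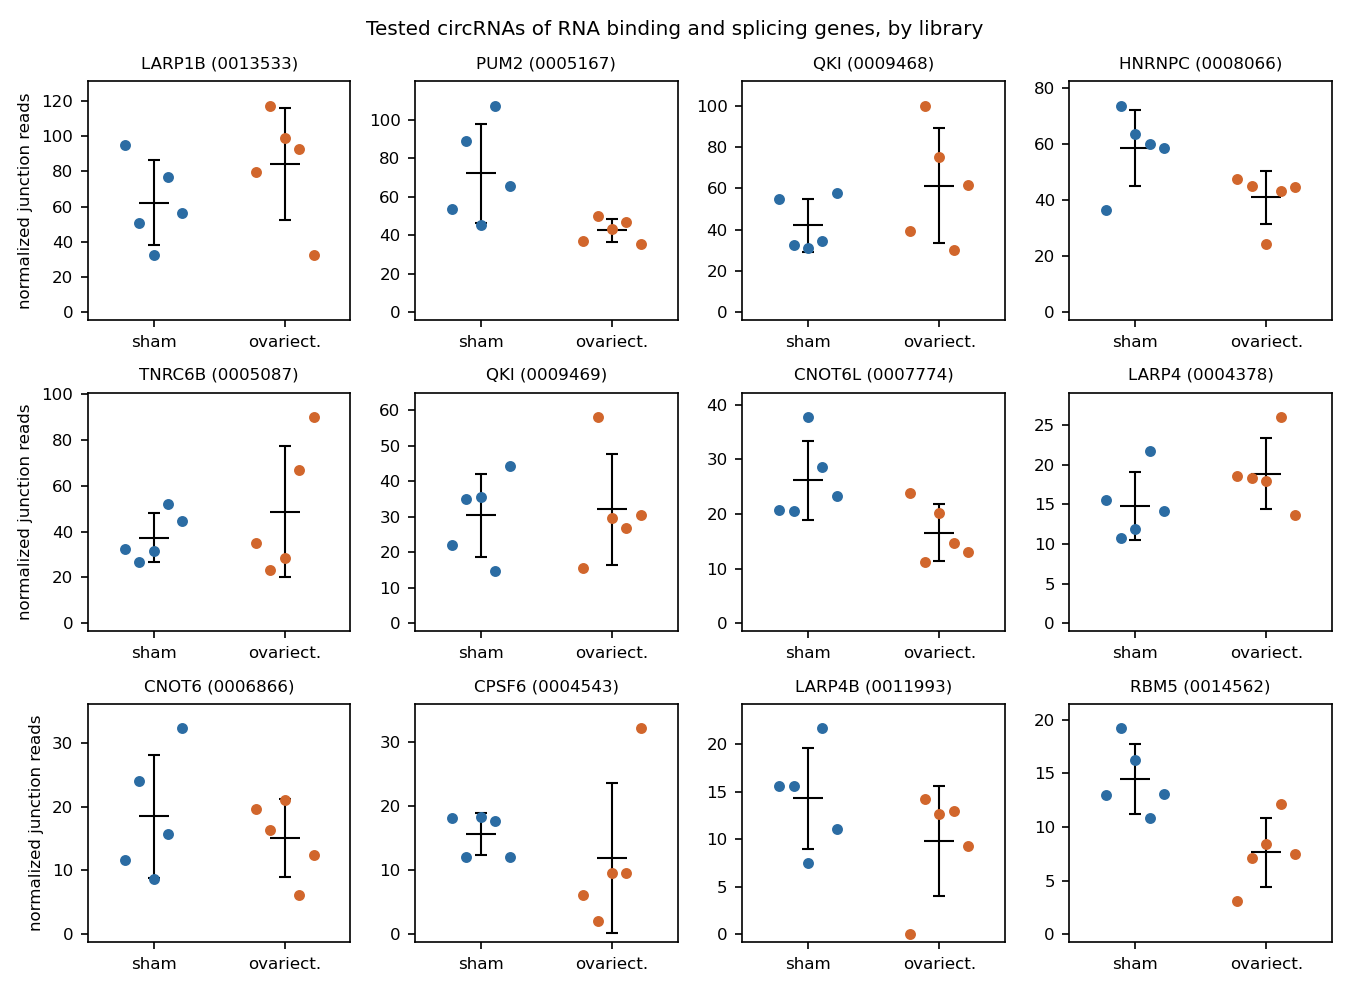
Normalized junction reads (y axis) of the 12 tested circRNAs in each sham (blue) and ovariectomized (orange) library, with replicates 1 to 5 from left to right; horizontal lines are means and bars SD, n = 5 each. The PUM2 panel shows 4 of 5 sham points above all ovariectomized points, and in the CPSF6 panel ovariectomized replicate 5 stands apart at 32.2.

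Sums over all circRNAs of a host gene gave a like picture. Of 753 hosts tested, 0 (0%) had a limma adjusted p under 0.05 and 45 (5.98%) an unadjusted one, 33 of them (4.38%) with lower values after ovariectomy. Of the 14 tested hosts of RNA binding genes, 0 had the first and 1, PUM2, the second. The median log2 difference was -0.31 over the 14 and -0.02 over all, with 4 above 0 and 10 below. LARP4 summed over its 10 circles differed by -0.33 ± 0.26 (SE, limma adjusted p = 0.809), or by -0.21 without sham replicate 4, while its leading circle differed by 0.31 ± 0.33. The other 3 circles of LARP4 listed in all libraries had lower means after ovariectomy than in sham, 13.7 ± 7.38 against 9.57 ± 3.73, 10.3 ± 3.12 against 6.28 ± 1.28 and 7.60 ± 8.25 against 5.26 ± 2.56, sham first (SD, n = 5). The last of these, novel_circ_0004386, had 22.2 normalized reads in sham replicate 5, and without that library its sham mean was 3.94 ± 1.34 (SD, n = 4), below the ovariectomized mean. These 3 were under the filter, and the difference between circles of LARP4 was not tested.

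One host had normalized reads that did not overlap between the groups, and it was below the filter. RBM6 had 9.38, 13.6, 12.9, 7.82 and 11.1 in sham and 2.08, 5.04, 5.35, 4.37 and 2.55 in ovariectomized libraries, summed over 3 circRNAs with 71 reads. Its means were 11 ± 2.4 and 3.88 ± 1.48 (SD, n = 5). RBM6 was singled out after its values were seen, because its groups do not overlap, so the limma fits given below are no independent test of that difference. Of all 3435 hosts 19 (0.553%) did not overlap, 10 of them (0.291%) lower after ovariectomy, and the single host among these 62 is given as a description. With looser filters that let it in, the limma log2 difference was -1.48 ± 0.83 and -1.48 ± 0.76 (SE), with adjusted p-values of 0.687 and 0.784. No single circRNA of the 138 was free of overlap, against 24 of 8721 (0.275%).

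Relative to the non-junction reads of the same place, 735 circRNAs could be compared, and 1 (0.136%) had a limma adjusted p under 0.05. None of the 12 did. At an unadjusted p under 0.05 there were 60 of 735 (8.16%) and 1 of the 12, LARP1B, with a higher ratio after ovariectomy, as in 53 of the 60 (7.21% of all tested). The median log2 ratio difference was 0.47 over the 12, with 8 above 0, and 0.29 over all tested. Without ovariectomized replicate 5 the medians were 0.09 and 0.13. Leaving out sham replicate 3 gave 0.28 and 0.29, and leaving out sham replicate 1 gave 0.29 and 0.25, so the shift of these circles depended on more than 1 library. The LARP1B circle had 32.9, 18.9, 15.4, 39.8 and 30.1 junction reads per 100 non-junction reads in sham and 52.4, 46.6, 59.1, 49.5 and 38.8 in ovariectomized libraries. The groups overlapped only in that sham replicate 4 exceeded ovariectomized replicate 5. Means were 27.4 ± 10.1 and 49.3 ± 7.48 (SD, n = 5 each), and the limma log2 difference was 0.91 ± 0.37 (SE), unadjusted p = 0.0235 and adjusted p = 0.579. It lay between 0.73 and 1.07 with each library left out. The shorter QKI circle followed with 0.87 ± 0.43, and RBM5 had the lowest value, -0.79 ± 0.42, which was -0.51 without ovariectomized replicate 1. The ratio of PUM2 differed by -0.20 ± 0.40, less than its error.

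**Figure D5:**
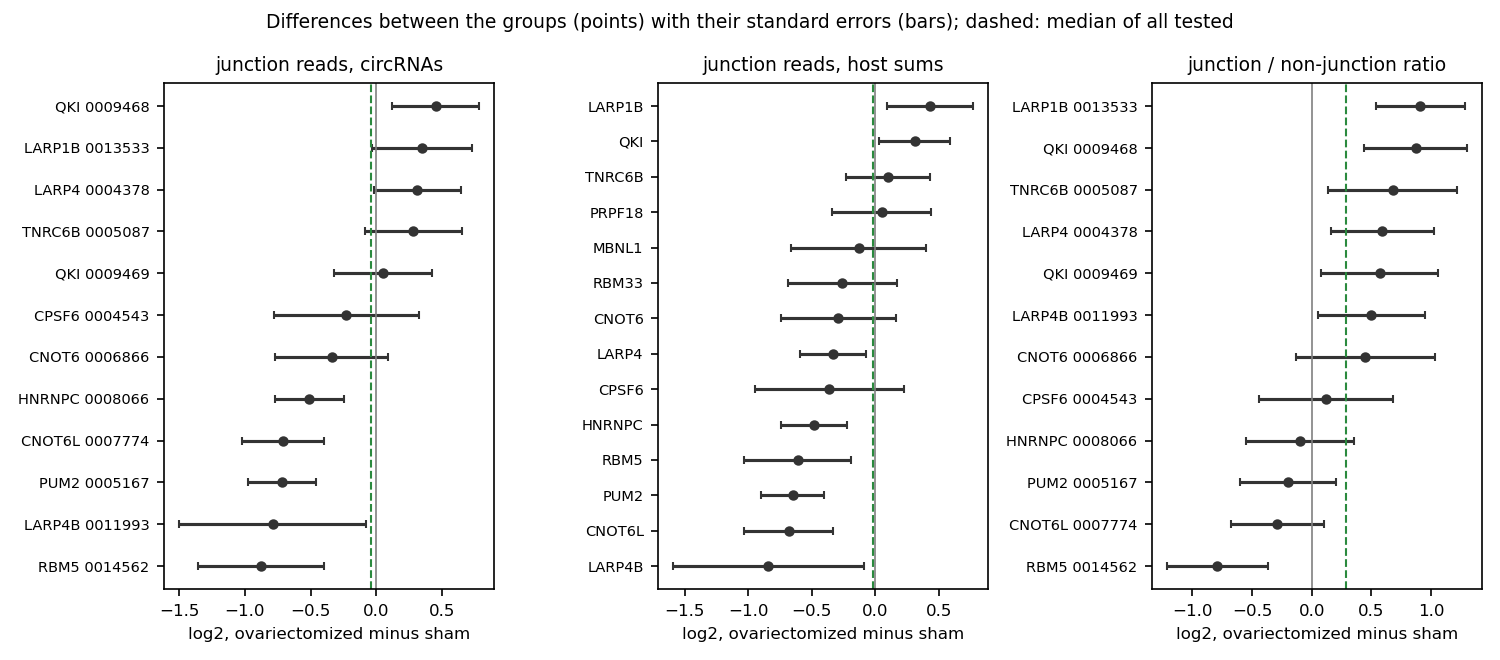
Log2 differences, ovariectomized minus sham (x axes), with standard errors as bars, for the 12 tested circRNAs (left), the 14 tested host sums (middle) and the ratio of junction to non-junction reads (right). The green dashed line is the median of all features tested, -0.04, -0.02 and 0.29, and no feature drawn had an adjusted p under 0.05.

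Some circles were listed in a single group. Of the 138, 41 (29.7%) were listed only in sham libraries and 17 (12.3%) only in ovariectomized ones, against 1972 (22.6%) and 2042 (23.4%) of all circRNAs. Most rested on few reads: 32 of the 41 and 13 of the 17 were listed in 1 library, and the 41 held 181 reads in all and the 17 held 83. Sham replicates 2 and 4 alone accounted for 11 each of the 32. No test was made of these counts. In at least 3 libraries of a single group were AGO4 novel_circ_0000089 (3 reads in each of sham replicates 2, 3 and 4), DHX8 novel_circ_0010943 (5, 4 and 4 reads in sham replicates 1, 4 and 5), and a pair from CPEB3, which regulates polyadenylation in the cytoplasm. CPEB3 novel_circ_0015400 had 4, 5 and 4 reads in sham replicates 1, 4 and 5, and novel_circ_0015398 had 3, 4 and 6 in ovariectomized replicates 2, 4 and 5, so the host itself was listed in both groups.

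Libraries listed 45 to 69 of the 138 circRNAs in sham (mean 55.8 ± 8.67 SD, n = 5) and 42 to 57 after ovariectomy (49.4 ± 6.02). With at least 5 reads required, the means were 30.4 ± 5.68 and 32.4 ± 2.41. Per 10000 junction reads, libraries listed 13.5 ± 2.65 of them in sham and 10.9 ± 2.6 after ovariectomy. The order of the groups thus depended on the measure. Mean junction reads were 42045 in sham and 47034 after ovariectomy, and the part of depth in these counts was not tested. The share of junction reads held by the 138 was 1.42% ± 0.286 in sham and 1.41% ± 0.157 after ovariectomy, and with the SENP6 circRNA left out 1.58% ± 0.171 and 1.45% ± 0.139. The ranges overlapped in each of these measures.

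Other genes of the same processes were not named by the family rule. Of 92 such genes for circRNA formation and double-stranded RNA, splicing, decay and export, and translation, 40 hosted 94 circRNAs with 4997 reads. In the limma host fit 8 were tested, 0 had an adjusted p under 0.05 and 0 an unadjusted one, with 3 log2 differences above 0 and 5 below and a median of -0.18. PTBP3, a relative of the polypyrimidine tract binding protein, differed by -0.05 ± 0.34 (SE), DCP2, the decapping enzyme, by -0.31 ± 0.36, and CWC22, a spliceosomal factor that loads the exon junction complex, by 0.56 ± 0.50. RC3H2, a roquin RNA binding protein, had -1.85 ± 4.94, an error larger than any difference among the 12 circles above. Of the 14 genes on the list for circRNA formation and double-stranded RNA, 4 hosted circRNAs (ADARB1, ZFR, DICER1 and DROSHA), with 95 reads and none past the filter.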

How the data were processed

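Values come from 2 deposited tables. The first packs, per the file headers, the authors' junction and non-junction read counts per circRNA with the sample names; HISAT2 is named in the submitters' processing notes, circRNA caller and genome build are not stated in the sources used here. The packed lists also hold 10 sample names from outside the series, which were left out. The second holds the authors' mean normalized signal of each group, their log2 fold change, and their deposited p-value and adjusted p-value. Dividing the counts by median-of-ratios factors gave the authors' group means to within 3.2e-07. Starts count from 1.

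The 10 libraries were grouped by title. Junction counts were fitted on the whole table with limma voom (limma 3.58.1, statmod 1.5.0, R 4.3.3), trimmed mean of M values scaling (30% and 5% trimmed), robust variances, group as the only term and Benjamini-Hochberg adjustment at 0.05; host sums likewise. The ratio was log2 of (junction + 0.5) over (non-junction + 0.5), in limma trend, with unlisted libraries missing. Functions were tested on simulated data drawn with a common spread. At the same threshold a 2-fold change was recovered for 39.1% of changed circRNAs in junction reads and 12.5% in the ratio. For a 4-fold change these shares were 97.3% and 84.5%. In the 2-fold run 184 of 757 tested circRNAs were changed, and the ratio called 7 unchanged ones beside 23 recovered. If fewer circRNAs change in the real data, the adjustment is stricter there and the shares recovered are lower. Named were the 20 circRNAs with most reads, the 5 tested (3 for the ratio) with the smallest p in each direction, role leaders and hosts with at least 4 circRNAs. The members and lists were chosen with earlier results of these data known. Alternatives were other scalings, filters, variance models, a pseudocount of 1, a replicate block and leaving out each library. Host IDs of all 138 were found in the ARS-UI_Ramb_v3.0 gene table. No sequence is printed.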

Additional observations from a re-analysis of the deposited data

Results flagged for a closer look

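In 9 of 104 groups of 5 libraries tested, 1 library stood far from the other 4. The limit used passes about 1 in 20 by chance for independent, normally spread values. Several of these groups share a circle, so the 9 cannot be read as an excess over chance. In ovariectomized replicate 5 the CPSF6 circle novel_circ_0004543 had 32.2 normalized reads against 2.03 to 9.54 in the other ovariectomized libraries, the CPSF6 host sum 33.1 against 2.01 to 9.63, and the summed polyadenylation and cleavage genes 51.4 against 6.2 to 13.0. All 3 values rest on the same circle. In ovariectomized replicate 3 the HNRNPC circle novel_circ_0008066 had 24.3 against 43.3 to 47.5, and the host sum, which is the same circle, 24.6 against 43.7 to 47.8. In ovariectomized replicate 1 the MBNL1 host sum was 34.3 against 6.04 to 13.9, and that of RBM33 6.24 against 13.1 to 15.9. For LARP4, novel_circ_0004386 had 22.2 in sham replicate 5 against 2.41 to 5.21, and novel_circ_0004378 had 10.9 junction reads per 100 non-junction reads in sham replicate 4 against 3.08 to 4.15.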

How the results depend on the processing

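The counts of RNA binding circRNAs and hosts past the threshold were 0 in the 16 other settings and the 30 fits with 1 library left out. Replicate numbers are not stated to pair the samples. The correlations of same-numbered samples' deviations were 0.0686, 0.1848, 0.0524, 0.119 and -0.1098, and 1 of 5 sham and 2 of 5 ovariectomized libraries correlated best with their own number, so they were not treated as pairs. With the replicate block the count stayed at 0 of 12 while over all circRNAs it went from 0 to 3, and CPSF6 novel_circ_0004543 changed sign to 0.06. The host MBNL1 turned from -0.13 to 0.11 with the block, 0.06 with library totals and 0.02 in limma trend. The difference in listed circRNAs turned from -6.4 to 2 with at least 5 reads, and was -2.52 per 10000 junction reads. With 1 library left out, log2 differences crossed 0 for the circles of TNRC6B (just below 0.00 to 0.52), QKI novel_circ_0009469 (-0.17 to 0.27) and CNOT6 (-0.56 to 0.00), for the hosts CNOT6 (-0.50 to 0.01), MBNL1 (-0.41 to 0.18), PRPF18 (-0.15 to 0.26) and TNRC6B (-0.20 to 0.28), and for the ratios of PUM2 (-0.38 to 0.02), CNOT6 (-0.04 to 0.85), HNRNPC (-0.47 to 0.19) and CPSF6 (-0.42 to 0.56). None of these was past the threshold, and the cause was not tested. The settings for RBM6 and for the LARP4 group means were chosen after seeing the data. With 1 library left out, the RBM6 difference in mean normalized reads, not in log2, lay between -7.86 and -6.41. As RBM6 was picked because its groups do not overlap, leaving out a library could not turn its sign. At a median total of 10 reads most of these circles were too shallow to test.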
